A study of Mus musculus with 19 samples.

Results

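The respiratory chain of the hippocampus was described through 106 protein-coding genes of 20655 in the count table. Members were chosen by symbol, not by measured values: the 13 protein-coding genes of mitochondrial DNA, and 93 nuclear genes named as subunits of complexes I to V. Symbols beginning with Ndufa also brought in 8 assembly factors of complex I (Ndufaf1 to Ndufaf8), which are kept apart below. The other nuclear members numbered 36 for complex I, 4 for complex II, 9 for complex III, 19 for complex IV and 17 for complex V. Symbols came from GENCODE M21, in which the rule found 108 genes, and 2 of these (Cox8c and one of a pair of Atp5o entries) matched no row of the table. All members but the complex IV isoform Cox7b2 passed the filter on low counts, which left 105 tested.

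RNA of the left hippocampus was sequenced in bulk from 19 mice at an age of 4 months, with 1 library per animal. Every animal carried the 5xFAD transgenes (labelled 5xFADHEMI), which drive mutant human amyloid precursor protein and presenilin in neurons under Thy1 elements. The 5xFAD groups held 5 females and 5 males without a second change, and the knock-in groups held 4 females and 5 males that also carried CLUh2kbKI (labelled CLUh2kbKIHO), an allele at the clusterin locus whose changed sequence the labels do not give. No group lacked the transgenes, so every comparison of genotypes is made on a 5xFAD background. Clu itself ran from 809 to 1121 CPM (counts scaled to the size of the library) in 5xFAD females, from 938 to 1365 in knock-in females, from 865 to 1159.5 in 5xFAD males and from 732 to 1109 in knock-in males. The groups overlapped, so this gene does not check the labels.

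The respiratory chain sits in the inner mitochondrial membrane, where complexes I, III and IV pump protons as electrons pass from NADH and succinate to oxygen, and complex V uses the proton gradient to make ATP. Complex II, which is also an enzyme of the tricarboxylic acid cycle, is built from nuclear genes alone, while the other complexes join nuclear subunits to a core made from mitochondrial DNA. The mitochondrial genes are transcribed from both strands as long precursors that are cut into single messengers, whereas each nuclear subunit has its own promoter. Neurons depend on this pathway for most of their ATP.

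The sequences of these genes bear on how their counts can be read. mt-Co1, the catalytic core of complex IV, has a copy in the nuclear genome, the pseudogene Gm29216. In the GENCODE M21 transcripts, that copy of 492 bases matched bases 1054 to 1545 of mt-Co1 at all but 6 positions (98.8% identity), and of its 453 windows of 40 bases, 440 were identical to mt-Co1. The stretch that holds all 6 differences is shown, with the differing bases in capitals, because reads from the remainder of the copy cannot be told from mt-Co1.
mt-Co1: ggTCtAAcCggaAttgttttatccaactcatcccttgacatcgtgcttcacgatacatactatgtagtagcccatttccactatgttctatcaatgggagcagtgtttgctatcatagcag
Gm29216: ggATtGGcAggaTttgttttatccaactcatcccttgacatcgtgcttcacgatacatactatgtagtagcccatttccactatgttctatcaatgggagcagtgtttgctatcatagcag
Of the 13 mitochondrial members, 11 shared at least 1 such window with an annotated pseudogene, but of the 15 pseudogenes concerned only Gm29216 and Gm13340 were in the count table, and Gm13340 stayed under 1 CPM in every library. Gm29216 ranged from 71.8 to 3551 CPM and made up 0.389% to 11.7% of the summed counts of the pair.

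mt-Atp8 and mt-Atp6, a pair of membrane subunits of complex V, are read from one messenger and their reading frames share 43 bases, shown in capitals with 25 bases on each side.
mt-Atp8 end and mt-Atp6 start: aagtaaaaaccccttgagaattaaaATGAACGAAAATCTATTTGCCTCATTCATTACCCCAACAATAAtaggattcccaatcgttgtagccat
mt-Nd4l and mt-Nd4 share 7 bases in the same way. mt-Nd6 lies on the other strand from the remaining mitochondrial members, and whether the libraries keep strand is not given in the sources used here, so reads of its antisense partner cannot be told apart from its own.

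For the nuclear members, RefSeq (GRCm38.p6) gave a window from 250 bases before to 50 bases after the start for 76 of 93. Each window was searched on both strands for the ETS motif CCGGAAG bound by GABP, the YY1 motif AAGATGGC and the NRF1 motif. The NRF1 motif is spelled by the capitals of Sdha below, with any base allowed in the sixth place. The NRF1 motif was present in 19 windows (25%, against 10.1% of 11698 other tested protein-coding genes), the ETS motif in 18 (23.7% against 17.5%) and the YY1 motif in 11 (14.5% against 4.6%). At least 1 of the 3 motifs was present in 41 windows (53.9% against 28.3%). The most abundant nuclear subunit of each complex with a match before its start shows what these windows hold, with the motifs in capitals and the last base next to the start. These are Ndufs3 of complex I (chr2:90904722-90904768), Sdha of complex II (chr13:74350241-74350358), Uqcrh of complex III (chr4:116075071-116075100), Cox6a1 of complex IV (chr5:115348959-115349078) and Atp5c1 of complex V (chr2:10080433-10080469), each read from the minus strand.
Ndufs3: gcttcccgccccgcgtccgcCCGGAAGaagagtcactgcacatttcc
Sdha: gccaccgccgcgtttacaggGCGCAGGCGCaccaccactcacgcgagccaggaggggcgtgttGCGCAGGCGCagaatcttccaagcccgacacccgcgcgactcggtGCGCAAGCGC
Uqcrh: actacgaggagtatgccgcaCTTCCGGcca
Cox6a1: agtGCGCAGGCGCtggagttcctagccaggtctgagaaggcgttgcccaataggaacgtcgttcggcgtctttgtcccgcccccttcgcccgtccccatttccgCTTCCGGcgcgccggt
Atp5c1: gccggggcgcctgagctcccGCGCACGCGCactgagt
The Ndufs3 and Uqcrh stretches hold the ETS motif, which in Uqcrh and Cox6a1 reads on the opposite strand. Those of Sdha and Atp5c1 hold the NRF1 motif, 3 times in Sdha. The Cox6a1 stretch holds both kinds. A match is a string of letters, and no binding was measured.

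Libraries held between 17.28 M and 25.2 M counts (M, mega). Markers of hippocampal pyramidal and granule neurons were present, with a summed level of 836 to 1304 CPM over 10 genes in all libraries and none of them under 1 CPM on average. The libraries fell into a set of 7 and a set of 12 that the labels do not name, seen after the data were examined. Gm7336, a nuclear pseudogene, was at most 3.62 CPM in the 7 (knock-in female 1, knock-in males 6 and 10, 5xFAD females 1, 2 and 4, and 5xFAD male 10) and at least 125 CPM in the 12. Of all tested genes, 258 (1.42%) did not overlap between the sets, and of the 106 members 6 did not. In the set with low Gm7336, mt-Co2, mt-Co3 and Ndufb5 were lower, and Cox5b, Uqcr11 and Ndufs6 were higher. Cox5b, a nuclear subunit of complex IV, was 135 to 191 CPM in the 7 and 44.6 to 111 CPM in the 12. mt-Atp8 per 100 of mt-Atp6 was 20.5 to 23.3 in the 7 and 5.48 to 10.8 in the 12. The 7 held 3 of 5 5xFAD females but 1 of 4 knock-in females, 1 of 5 5xFAD males and 2 of 5 knock-in males. Values within each set therefore stand beside the pooled results below.

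**Figure D1:**
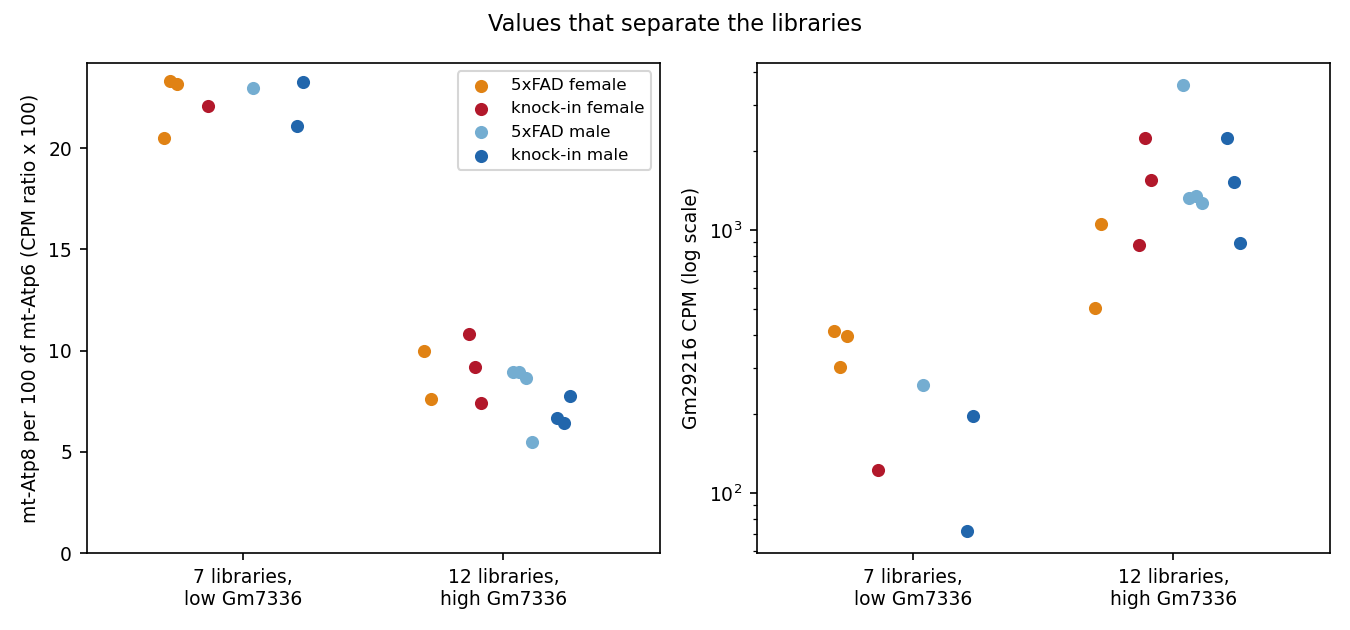
Each point is 1 library, coloured by group. The left panel gives mt-Atp8 per 100 of mt-Atp6 (ratio of CPM), which was 20.5 to 23.3 in the 7 libraries with low Gm7336 and 5.48 to 10.8 in the other 12, and the right panel gives the CPM of the mt-Co1 copy Gm29216 on a log axis, at most 415 in the 7 and at least 506 in the 12.

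Mitochondrial members supplied far more of the reads than nuclear members. The 13 mitochondrial genes took 4.03% to 9.85% of all counts in a library, and the 93 nuclear genes took 0.745% to 1.11%. mt-Co1 had the highest mean CPM of all genes in the table (19494 ± 3781 CPM, SD, n = 19), followed by mt-Co2, mt-Nd4, mt-Co3, mt-Cytb, mt-Atp6 and mt-Nd1. Per kilobase of exon, the level of mt-Co1 was 12618 CPM, that of mt-Co2 9809, that of mt-Atp6 8665 and that of mt-Co3 7935. The complex I genes were lower on this scale, from 4582 for mt-Nd4 and 4473 for mt-Nd1 down to 1244 for mt-Nd3. The highest nuclear member on the same scale was Cox6a1 at 400.1 CPM per kilobase, then Cox8a at 369 and Atp5a1 at 254. The length used joins all annotated exons of a gene, so the order of nuclear members depends on the annotation. All 13 mitochondrial members stood above every nuclear member per kilobase.

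In complex V, the catalytic subunits Atp5b (998 ± 117 CPM, SD, n = 19) and Atp5a1 (797 ± 87.5 CPM) had the highest CPM among nuclear members. In complex IV, Cox4i1 stood at 391 ± 60.3 CPM and Cox6a1 at 281 ± 51.0 CPM. In complex II, Sdha, the flavoprotein that oxidises succinate, was at 370.3 ± 48.2 CPM. In complex I, Ndufs1, a core subunit on the electron path, was at 142 ± 10.8 CPM. In complex III, the core proteins Uqcrc1 (233 ± 25.3 CPM) and Uqcrc2 (170.2 ± 13.7 CPM) were the highest. These levels are not divided by length and are given to show the depth behind each gene.

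Some nuclear subunits of complex IV exist as pairs of isoforms, of which one is used in most tissues. The other is, for most of the pairs below, a form of heart, muscle, lung or testis. In these libraries the widely used form was the higher of each pair, on the scale of CPM per kilobase. Cox4i1 was 155 times Cox4i2, the lung form, by the ratio of means. Cox6a1 was 83.2 times Cox6a2 and Cox7a2 62.0 times Cox7a1, the latter of each pair being the heart and muscle form. Cox6b1 was 57.6 times the testis form Cox6b2, Cox8a was 80.5 times the heart and muscle form Cox8b, and Ndufa4 was 41.0 times Ndufa4l2. Cox7b2, the testis partner of Cox7b, had 0 counts in 3 of 19 libraries and was at most 0.715 CPM in the others, too low for a test.

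**Figure D2:**
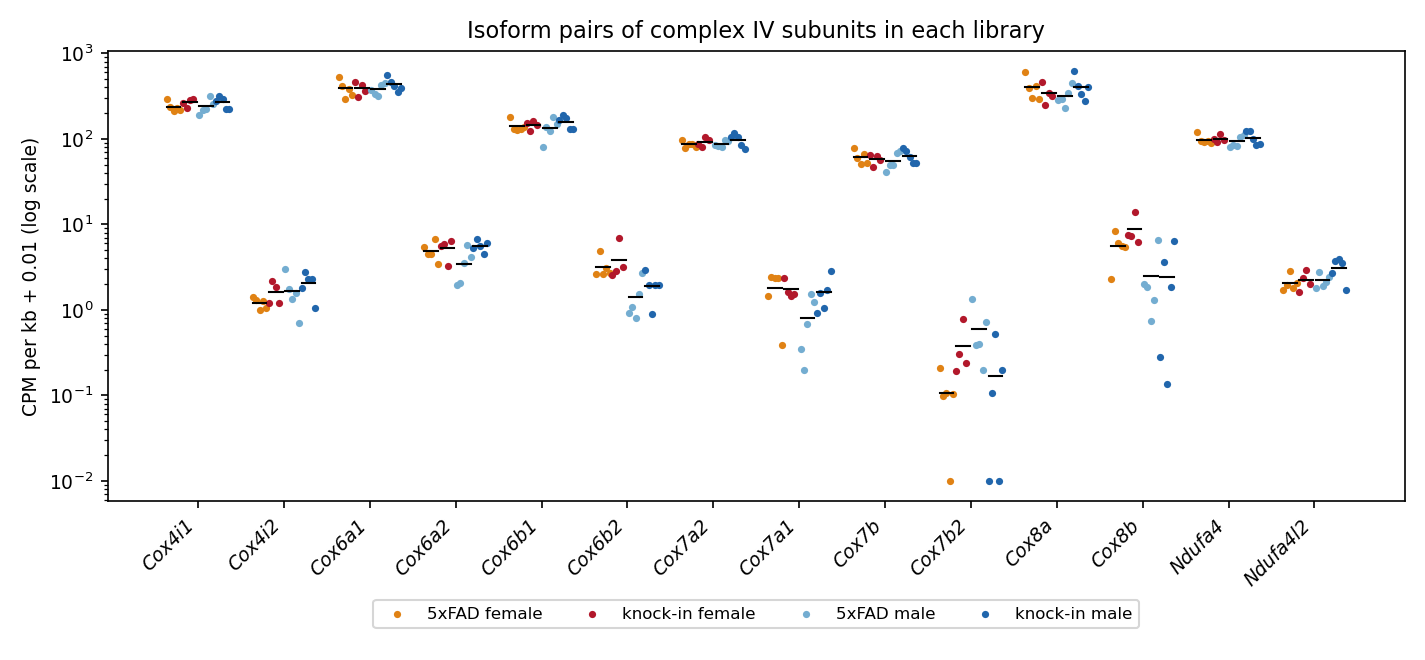
Level of each isoform in CPM per kilobase of exon plus 0.01, on a log axis, with 1 point per library, coloured by group, and a bar at each group mean. The widely used form on the left of each pair stood above its partner in all 19 libraries, for example Cox4i1 at 189 to 320.5 against Cox4i2 at 0.692 to 3.02.

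Mitochondrial members varied more between libraries than nuclear members. The median SD of log2 CPM within a group was 0.44 for the 13 mitochondrial members, from 0.27 for mt-Co1 to 0.61 for mt-Atp8. It was 0.23 for the 86 nuclear members at 5 CPM or above, from 0.09 for Ndufs1 to 0.67 for Ndufs6. The summed CPM of the mitochondrial members was 50491, 44873, 59874, 48486 and 61294 in 5xFAD females 1 to 5, and 53598, 86212, 88177 and 75056 in knock-in females 1, 2, 4 and 5. In 5xFAD males 6 to 10 it was 101335, 65055, 65479.7, 41249 and 54658, and in knock-in males 6 to 10 it was 54455, 70854, 73168, 69877 and 46175. 5xFAD males held both the highest and the lowest library, males 6 and 9. Knock-in females 2, 4 and 5 stood above all 5xFAD females, and knock-in female 1 lay among them.

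The summed CPM of the nuclear members had a narrower span, from 7664 in 5xFAD male 6 to 11199 in knock-in male 7. 5xFAD male 6, with the highest mitochondrial sum, had the lowest nuclear sum. 5xFAD male 9, with the lowest mitochondrial sum, had a nuclear sum of 10875, the highest in its group. The ratio of the sums was 3.79 in 5xFAD male 9 and 13.2 in 5xFAD male 6, and lay between 4.66 and 10.4 in the other 17 libraries.

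**Figure D3:**
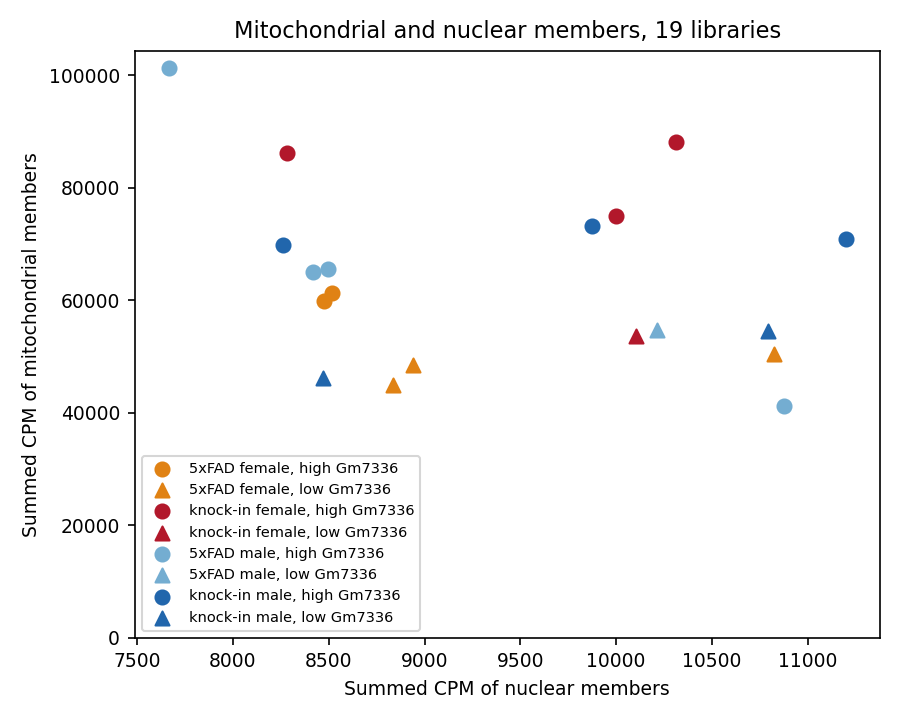
Summed CPM of the nuclear members (horizontal axis) against that of the mitochondrial members (vertical axis), with 1 point per library, coloured by group, circles for high and triangles for low Gm7336. 5xFAD male 6 lies at the upper left (7664 nuclear, 101335 mitochondrial) and 5xFAD male 9 at the lower right (10875 nuclear, 41249 mitochondrial).

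Genes of one genome moved together from library to library. Over deviations of log2 CPM from the group means in 19 libraries, the median Pearson coefficient was 0.79 for 78 pairs of mitochondrial members and 0.64 for 3655 pairs of nuclear members at 5 CPM or above. It was -0.35 for 1118 pairs of one mitochondrial and one nuclear member, of which 26.8% were above 0. Within the 12 libraries with high Gm7336 the same medians were 0.93, 0.81 and -0.50. All genes of a library share its depth and its scaling, and CPM are shares of one total, so these coefficients are a description and carry no p. Over the 19 libraries mt-Atp8 stood apart from the other mitochondrial members, with a median coefficient of 0.19 against them, where the other 12 had medians from 0.72 to 0.91. Within the 12 libraries with high Gm7336, 100% of the 78 mitochondrial pairs, those of mt-Atp8 included, were above 0, with a 10th percentile of 0.60.

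The first comparison asked whether the knock-in changed these genes over both sexes. No member passed an adjusted p of 0.05 in edgeR's quasi-likelihood test (Benjamini-Hochberg over 18204 genes), in DESeq2 or in limma-voom, and percent called over all tested genes was 0.0220%. At an unadjusted p under 0.05, 2 of 105 members passed in edgeR, mt-Nd3 and Sdhc, where 11.9% of all tested genes did. All 13 mitochondrial members were above 0, with a median log2 change of 0.23, and so were 88 of 92 nuclear members, with a median of 0.10. The median over all tested genes was 0.00, with 49.6% above 0. Leaving out 1 library moved the mitochondrial median to between 0.16 (knock-in female 2) and 0.37 (5xFAD male 6). With the level of nuclear noncoding RNA as a term it was 0.07, with 11 of 13 above 0. That level did not overlap between the female groups, so the term is bound up with the knock-in in females. Sdhc, which anchors complex II in the membrane, had the lowest p among nuclear members (log2 change 0.19, SE 0.08, adjusted p = 0.345 by edgeR). In the 12 libraries with high Gm7336 the mitochondrial median was 0.23 and the nuclear median 0.19, and in the 7 with low Gm7336 these were 0.06 and 0.01.

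In females, the mitochondrial members were higher on average in the knock-in, but none passed the test. No member of either genome passed an adjusted p of 0.05 in edgeR, DESeq2 or limma-voom, beside a percent called of 5.56% over all tested genes. At an unadjusted p under 0.05 in edgeR, 9 of 13 mitochondrial and 3 of 92 nuclear members passed, all of them higher, where 8.84% of all tested genes passed on the higher side and 22.1% in either direction. The 13 mitochondrial log2 changes ran from 0.17 for mt-Atp8 to 0.78 for mt-Nd6, with a median of 0.52. The median of the 92 nuclear members was 0.06 and that of all tested genes 0.01. With scaling by library size only these were -0.04 and -0.09. Atp5a1, a catalytic subunit of complex V, was the 1 member of 105 whose female groups did not overlap, where 3.86% of tested genes were wholly higher and 9.03% wholly lower in the knock-in. For all 13 mitochondrial members the groups overlapped.

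Complex IV held the lowest adjusted p in females. mt-Co2, which takes electrons from cytochrome c, was at 5179.8, 3948, 5641, 4530.4 and 6460.4 CPM in 5xFAD females 1 to 5 and at 4937, 8142, 9827 and 8734 CPM in knock-in females 1, 2, 4 and 5. Knock-in female 1 lay among the 5xFAD females, and the other 3 above all of them. Its log2 change was 0.62 (SE 0.24, adjusted p = 0.126 by edgeR). mt-Co3, a structural core subunit, was at 4561, 3416, 5670.2, 3849.7 and 6342 CPM in the 5xFAD females and at 4698, 8167, 9293 and 8079.9 CPM in the knock-in females. The same library overlapped, and its log2 change was 0.66 (SE 0.26, adjusted p = 0.130 by edgeR). Without knock-in female 1, the only knock-in female in the set with low Gm7336, mt-Co2 came just under the threshold. Its change was then 0.82 with an adjusted p of 0.0490 by edgeR. That fit called 392 genes higher and 559 lower of 18525 over the whole table. By DESeq2, the adjusted p was 0.0618 for mt-Co2 and 0.0591 for mt-Co3 with all libraries. mt-Co1, which holds the oxygen-reducing site, was at 17068 ± 1603 CPM in 5xFAD females (SD, n = 5) and 22626 ± 4032 CPM in knock-in females (SD, n = 4), a log2 change of 0.41 (adjusted p = 0.150 by edgeR).

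mt-Co2 and mt-Co3 are the mitochondrial members that did not overlap between the sets of 7 and 12 libraries. Within the 12 libraries with high Gm7336, the female change was 0.57 for mt-Co2 (adjusted p = 0.209 by edgeR) and 0.52 for mt-Co3 (adjusted p = 0.192). Within the 7 with low Gm7336, which hold 1 knock-in female, it was 0.14 and 0.27, that animal being taken to vary like the others. With the set as a term in the model it was 0.36 and 0.39. The median over the 13 mitochondrial members was 0.52 in the 12, 0.22 in the 7 and 0.37 with the set as a term. What made the sets differ was not tested.

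In complex I, mt-Nd3 was at 373, 293, 349.9, 314 and 420.5 CPM in the 5xFAD females and 360.2, 476, 606 and 603 CPM in the knock-in females (log2 change 0.55, SE 0.22, adjusted p = 0.135 by edgeR). The same 3 knock-in females stood above all 5xFAD females. mt-Nd1 had a log2 change of 0.52 (adjusted p = 0.158), mt-Nd2 of 0.60 (adjusted p = 0.166) and mt-Nd4 of 0.51 (adjusted p = 0.294). mt-Nd6, on the other strand, had the largest change of the 13 (0.78, SE 0.35) but an adjusted p of 0.202. In complex III, mt-Cytb was at 5135 ± 709.6 CPM in 5xFAD females and 7309.9 ± 1595 CPM in knock-in females. Its log2 change was 0.51 (adjusted p = 0.154 by edgeR across all genes). In complex V, the log2 change was 0.64 for mt-Atp6 (SE 0.29, adjusted p = 0.199) but 0.17 for mt-Atp8 (SE 0.37, adjusted p = 0.838), all by edgeR. The spread that these tests use is shared with the males. With the female libraries alone, mt-Nd1, mt-Nd2 and mt-Nd3 passed (adjusted p = 0.0450, 0.0353 and 0.0432 by edgeR), with log2 changes of 0.51, 0.59 and 0.54. That fit called 304 genes higher and 1295 lower of 18204 over the whole table, against 206 and 807 in the main fit. Without the 5xFAD males 6 and 9, mt-Nd1, mt-Nd2, mt-Nd4, mt-Nd5 and mt-Cytb passed, with adjusted p from 0.0289 to 0.0493 by edgeR and changes from 0.49 to 0.62. There, 349 genes of the whole table were called higher and 812 lower, of 18420.

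**Figure D4:**
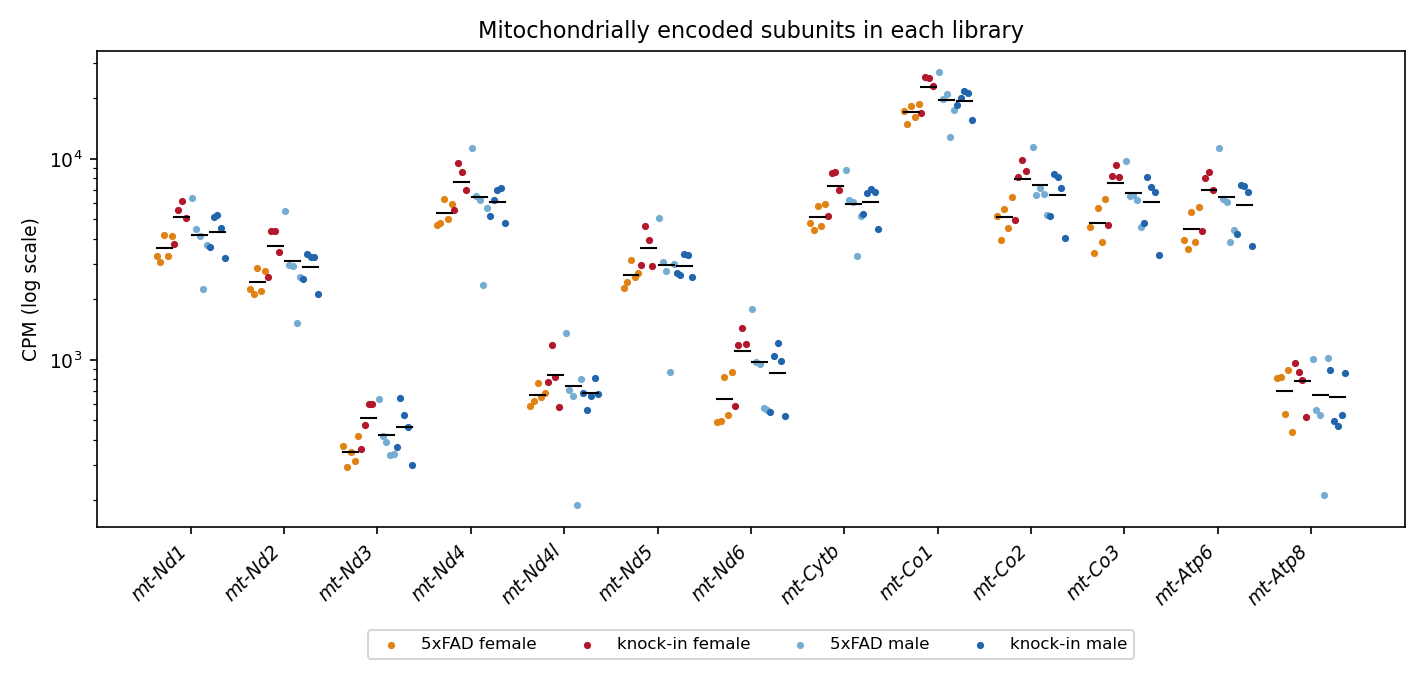
CPM of the 13 mitochondrial members on a log axis, with 1 point per library, coloured by group, and a bar at each group mean. Knock-in females have the highest group mean for every gene shown, and the groups overlap for each, with 5xFAD male 9 lowest for mt-Nd5 (868 CPM) and 5xFAD male 6 highest (5077 CPM).

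The nuclear subunits of females had changes closer to 0, with few exceptions. Atp5a1 was at 743, 691, 776, 706 and 754 CPM in 5xFAD females and at 829, 787, 904 and 905 CPM in knock-in females. Its log2 change was 0.22 (SE 0.10, adjusted p = 0.212 by edgeR). All 4 knock-in females stood above all 5 5xFAD females, by a narrow margin in knock-in female 2. Sdhc was at 75.1, 75, 79.1, 66.8 and 74.8 CPM in 5xFAD females and at 80.4, 78.4, 95.6 and 96.4 CPM in knock-in females. The groups met at 1 library each, and the log2 change was 0.24 (adjusted p = 0.205 by edgeR). Cox7a2l, a protein that joins complexes III and IV into supercomplexes, had one of 0.30 (adjusted p = 0.217 by edgeR). Median log2 changes of the nuclear members were 0.06 for complex I (23 of 36 above 0), 0.18 for complex II (4 of 4), -0.01 for complex III (4 of 9), 0.07 for complex IV (12 of 18) and 0.09 for complex V (12 of 17). The 8 assembly factors had a median of 0.01. The median over all 92 nuclear members turned negative under 2 alternatives. It was -0.16 with the level of nuclear noncoding RNA as a term, a level that did not overlap between the female groups. With scaling by library size only it was -0.04, where that of all tested genes was -0.09. The lowest nuclear changes were those of Uqcr11 (-0.37), Cox5b (-0.37) and Ndufs6 (-0.35), the members that were higher in the set with low Gm7336, and none of these passed.

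In males, no member passed an adjusted p of 0.05 in edgeR, DESeq2 or limma-voom, and percent called over all tested genes was 0%. At an unadjusted p under 0.05, 4 nuclear members (Atp5j, Cox6a2, Ndufaf8 and Uqcr10) and no mitochondrial member passed in edgeR, where 6.52% of all tested genes did. The mitochondrial median was -0.08, with 3 of 13 members above 0, but its sign turned with the method and the library left out, being 0.06 by limma-voom, 0.21 without 5xFAD male 6 and -0.25 without 5xFAD male 9. The nuclear median was 0.13, with 71 of 92 above 0, and it was -0.08 in the 7 libraries with low Gm7336, which hold 1 5xFAD male. mt-Co2 was at 11408, 6579, 7192, 6708 and 5248 CPM in 5xFAD males 6 to 10 and at 5193, 8407, 8148, 7183 and 4017 CPM in knock-in males 6 to 10. The groups overlapped, with the highest library in 5xFAD and the lowest in the knock-in, and the log2 change was -0.17 (SE 0.23, adjusted p = 0.929 by edgeR). Without the 5xFAD males 6 and 9 the mitochondrial median became 0.03.

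The nuclear members with the lowest p in males were Ndufaf8, an assembly factor of complex I, Uqcr10, a small subunit of complex III, and Cox6a2. Ndufaf8 was at 5.48, 4.45, 4.43, 6.50 and 9.11 CPM in 5xFAD males and at 13.3, 11.3, 6.88, 7.24 and 9.62 CPM in knock-in males. Its log2 change was 0.69 (SE 0.24, adjusted p = 0.694 by edgeR). Knock-in males 6 and 7 were the highest, and the groups overlapped. Uqcr10 had a log2 change of 0.29 (SE 0.11, adjusted p = 0.715 by edgeR). Cox6a2, at 1.31 to 4.57 CPM in males, had one of 0.69 (adjusted p = 0.717 by edgeR). Within the 12 libraries with high Gm7336 the male medians were 0.04 for mitochondrial and 0.21 for nuclear members, and within the 7 they were -0.17 and -0.08. The 7 hold 1 5xFAD male, so the male change there rests on that library.

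**Figure D5:**
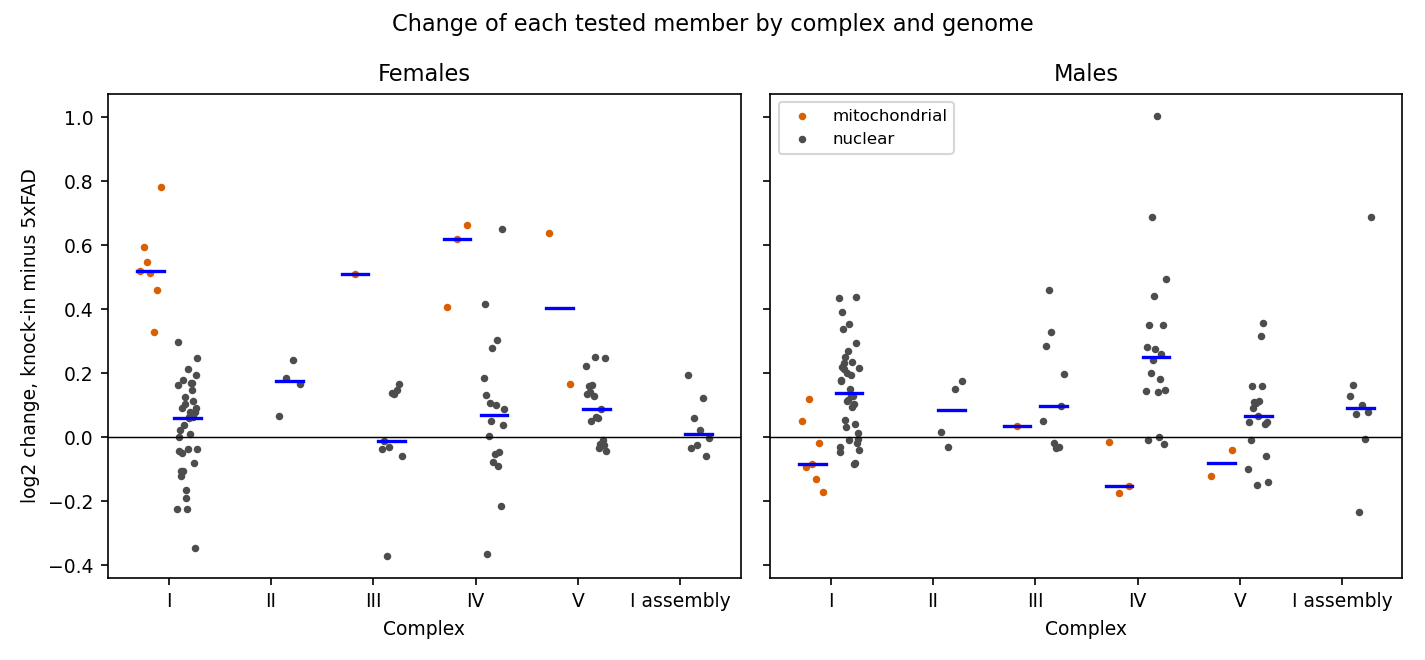
Log2 change of each tested member, knock-in minus 5xFAD, by complex, with mitochondrial members in orange, nuclear members in grey and bars at the medians. In females all 13 mitochondrial members lie above 0 with a median of 0.52, in males 3 of 13 do, with a median of -0.08, and nuclear medians stay between -0.01 and 0.25 in both panels.

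The change with the knock-in was then compared between the sexes, as the change in females minus that in males. No member passed an adjusted p of 0.05 in edgeR, DESeq2 or limma-voom, and percent called over all tested genes was 0.308%. At an unadjusted p under 0.05, mt-Co2, mt-Co3, Atp5a1 and Ndufs1 passed in edgeR, 4 of 105, where 17.7% of all tested genes did. The mitochondrial median was 0.48, with all 13 above 0, and it was 0.29 without 5xFAD male 6 and 0.74 without 5xFAD male 9. The nuclear median was -0.04. The lowest adjusted p was that of mt-Co2 (0.79, SE 0.33, adjusted p = 0.211 by edgeR). The difference between the sexes was therefore not past the threshold for any member. In the 12 libraries with high Gm7336 the mitochondrial median was 0.42, in the 7 it was 0.40. The 7 hold 1 knock-in female and 1 5xFAD male, so the change in each sex rests there on a single library.

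Females were also compared with males within each genotype, as female minus male. No member passed an adjusted p of 0.05 in edgeR, DESeq2 or limma-voom in either genotype. In 5xFAD, DESeq2 gave an adjusted p to only 3836 genes of the whole table, and a member without one could not pass there. Percent called by edgeR was 0.0385% in 5xFAD and 0.0494% in the knock-in. At an unadjusted p under 0.05, 4 and 2 members passed in edgeR, where 11.1% and 14.4% of all tested genes did. Mitochondrial members were below 0 in 5xFAD (median -0.26, 1 of 13 above 0) and above 0 in the knock-in (median 0.27, 13 of 13). The 5xFAD median was -0.03 without 5xFAD male 6, -0.40 without 5xFAD male 9 and -0.09 by limma on the deposited normalized values. The knock-in median was 0.43 without knock-in female 1. In the 12 libraries with high Gm7336 these medians were -0.18 and 0.26, and in the 7 with low Gm7336 -0.22 and 0.16. The 7 hold 1 5xFAD male and 1 knock-in female, so each of the latter medians rests on a single library of its sex. At an unadjusted p, the members that passed in 5xFAD were mt-Co2, lower in females, and Cox6b2, Cox7a1 and Ndufaf8, higher in females, and in the knock-in Cox6b2 and Cox8b, both higher in females. These comparisons use the same 4 groups as the genotype effects and are not independent of them. Cox6b2, the testis isoform, was at 2.90, 5.33, 2.88, 3.42 and 3.01 CPM in 5xFAD females and at 1.01, 1.18, 0.887, 1.69 and 3 CPM in 5xFAD males (log2 difference 1.18, SE 0.36, adjusted p = 0.350 by edgeR). Male 10 reached the lowest females. In the knock-in its difference was 1.01 (adjusted p = 0.197 by edgeR). Cox8b was at 2.21 to 4.99 CPM in knock-in females and 0.046 to 2.29 CPM in knock-in males, and its difference was 1.84 (SE 0.69, adjusted p = 0.214 by edgeR). At the lowest of these levels, all in males, a library holds few counts of these isoforms.

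Other mitochondrial genes were followed as lists chosen with earlier results of these data known. The mitochondrial ribosomal RNAs mt-Rnr1 and mt-Rnr2 had log2 changes of 0.46 and 0.58 in females (adjusted p = 0.0691 and 0.0574 by edgeR) and of 0.00 and -0.08 in males. Both passed in females by DESeq2, which called 534 genes higher and 1294 lower of 19453 there over the whole table. The counts of the lists in females stand beside 5.56% of all tested genes called in either direction, 1.13% called higher and 4.43% called lower, and 22.1% at an unadjusted p under 0.05. For the mitochondrial lists that follow, the shares called were near or below the 5.56%. Of 44 assembly factors outside the members, 1 rose and 1 fell in females, Coa5 for complex IV (0.38) and Foxred1 for complex I (-0.46). Of 17 enzymes of the tricarboxylic acid cycle, 1 rose in females, Suclg2, a subunit of succinyl-CoA ligase (0.49, SE 0.12, adjusted p = 0.0250 by edgeR), with a median of 0.19 for the list. None of 78 mitochondrial ribosomal proteins passed in females (2 at an unadjusted p under 0.05 in edgeR, and 0 passed by DESeq2 or limma-voom), and their median was 0.03. None of 30 genes for maintenance and transcription of mitochondrial DNA and RNA processing passed (6 at an unadjusted p under 0.05 in edgeR, and 1 passed by DESeq2 and 0 by limma-voom), with a median of -0.06. Among 18 regulators of mitochondrial biogenesis Gabpb2, a GABP subunit, fell (-0.81), and of 16 outer membrane and transport genes Timm44, part of the import motor, fell (-0.56). Without knock-in female 2, or without knock-in female 4, no gene of the whole table passed in females, so these 5 calls, and the female calls of markers and noncoding RNA below, did not hold without either library. Over both sexes, in males and in the interaction no gene of these lists passed by edgeR. By DESeq2, Suclg2 passed over both sexes, where 94 genes of 15047 were called higher and 14 lower. Foxred1, Timm44 and Tomm70a passed by DESeq2 in the interaction, where it called 216 genes higher and 559 lower of 19854.

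Other measures moved with the female groups. Of 8 nuclear noncoding RNAs, 7 fell in knock-in females by edgeR, where 4.43% of all tested genes fell (Meg3 by a log2 change of -2.24), and their summed level was 5332 to 6943 CPM in 5xFAD females and 1212 to 2419 CPM in knock-in females, with no overlap. With their mean level as a term in the model, the female mitochondrial median was 0.48 and the nuclear median -0.16, and no gene of the whole table passed in females. In females, 3 of 8 astrocyte, 3 of 5 erythrocyte and 1 of 7 endothelial markers rose by edgeR, where 1.13% of all tested genes rose. No marker of the other 10 lists passed by edgeR. Of those lists, DESeq2 passed 2 microglial, 2 leptomeningeal and 1 oligodendrocyte precursor marker. DESeq2 called 534 genes higher and 1294 lower of 19453 over the whole table in females. The summed level of the astrocyte markers was 4393 to 5085 CPM in 5xFAD and 5697 to 6711 CPM in knock-in females. That of the erythrocyte markers was 100.2 to 159 and 192 to 355 CPM. Choroid plexus markers summed to 856 to 7068 CPM in 5xFAD females and 5007 to 15749 CPM in knock-in females. Some marker lists moved in males too, where no gene of the whole table passed by edgeR. Microglial markers had a median log2 change of 0.47 in males and 0.41 in females, with 8 of 8 above 0 in each sex. The male medians were 0.10 for astrocyte, 0.29 for erythrocyte and 0.08 for endothelial markers, and below 0 for the neuron and ependymal lists. The part of these cells and RNAs in the mitochondrial values was not tested. In bulk tissue, fewer cells of a type and less RNA per cell cannot be told apart.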

How the data were processed

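Gene-level expression was measured by paired-end RNA sequencing. The submitters' processing notes name mm39, Salmon, DESeq2, FastQC and Seurat, without versions or order, and the authors deposited estimated counts per gene, which are the values tested. The authors also deposited a signal table of counts normalized across libraries, per the file headers, used for 1 alternative with a pseudocount of 1. Symbols from GENCODE M21 (GRCm38) matched 20023 of 20655 gene identifiers, and the other 632 were not searched for members.

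Counts were scaled with trimmed-mean factors, and genes were kept by edgeR's expression filter with a minimum count of 10, which left 18204. They were rounded for DESeq2 only, which used its own scaling. DESeq2 gave an adjusted p to 3836 genes in the sex effect of 5xFAD and to 15047 to 19854 in the other comparisons. edgeR 4.0.16 (quasi-likelihood, robust, R 4.3.3) was fitted on all 19 libraries, with sex as a covariate for the effect over both sexes and 1 mean per group otherwise. P-values were adjusted over all tested genes at a threshold of 0.05, and the procedure was tested on simulated data. DESeq2 1.42.0 and limma 3.58.1 served as alternatives, with other scalings, filters and covariates, a replicate block and each library left out. Alternatives built on Gm7336, Gm29216, 5xFAD males 6 and 9 or 1 sex were chosen after seeing the data.

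The members and lists were chosen with earlier results of these data known. Genes named were all mitochondrial members, the 2 most abundant nuclear members of each complex, those with the lowest p in each comparison and isoform partners, and 1 gene that this rule names is not reported here. Those named for the library sets (Ndufb5, Ndufs6, Uqcr11, Cox5b) were chosen after their values were seen. Replicate libraries within a group all differed by more than sampling noise (36 pairs). Equal numbers in the titles did not pair libraries (correlations of deviations from -0.203 to 0.119), so the model has no block, which was tried as an alternative. Each library's title carries a second number of its own, taken here as 1 animal per library. Whether a library was run on a NovaSeq or a HiSeq is not given in the sources used here.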

Additional observations from a re-analysis of the deposited data

Results flagged for a closer look

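A library stood far from the others of its group in 18 of 208 sets of values examined, where chance gives about 1 in 20. The sets are not independent, since sums hold genes examined beside them and members move together. The share flagged is therefore no measure of an excess over chance. Of the 18 flagged sets, 10 concern 5xFAD female 1 as the highest of 5. Its summed CPM was 10830.0 for all nuclear members, where the next library was at 8942, and it was 2858 for complex I, 1172 for complex III, 3560.0 for complex V and 171.8 for the complex I assembly factors. Single genes with the same library on top were Uqcr10 (80.14 CPM), Atp5b (1095 CPM), Cox4i1 (448.6 CPM), Cox6b1 (128.7 CPM) and Ndufa4 (166.1 CPM). Its mitochondrial sum was within the range of its group.

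Knock-in female 2 was lowest of 4 for the sum of all nuclear members (8280.0 CPM) and for complex I (2063 CPM). 5xFAD male 6 was highest of 5 for mt-Nd3 (641.6 CPM), and 5xFAD male 9 was highest for Cox7a2l (164.6 CPM). Among isoforms of low level, Cox6b2 was highest in 5xFAD female 2 (5.335 CPM) and in knock-in female 4 (7.593 CPM), Cox7a1 in knock-in female 1 (1.241 CPM) and Cox8b in 5xFAD male 10 (2.344 CPM). What sets these libraries apart was not tested.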

How the results depend on the processing

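Of 35 alternatives, 19 left out 1 library each. The count of members past the threshold was 0 throughout, except in females: it was 5 without the 5xFAD males 6 and 9, 3 with the female libraries alone, and from 0 to 1 with 1 library left out, the 1 being mt-Co2 without knock-in female 1. In that order, these fits called 349, 304 and 392 genes higher over the whole table, and 812, 1295 and 559 lower. The main fit called 206 and 807. The female mitochondrial median ran from 0.22 to 0.56 over the other alternatives and from 0.46 to 0.67 with 1 library left out. The interaction's ran from 0.34 to 0.52 and from 0.29 to 0.74. In males it ran from -0.17 to 0.14 and from -0.25 to 0.21, over both sexes from 0.06 to 0.32 and from 0.16 to 0.37, in the sex effect of 5xFAD from -0.26 to -0.09 and from -0.40 to -0.03, and in that of the knock-in from 0.16 to 0.31 and from 0.21 to 0.43. With the noncoding RNA level as a term, the nuclear median moved to -0.16 in females and -0.33 in the interaction. The female groups did not overlap in that level, so it can hardly be told apart from the knock-in in females. No called value changed sign, and 332 of 7211 values of single members changed sign without passing. With the replicate block the female mitochondrial median was 0.56 and 0 members passed in the 4 comparisons it allows. The sex effects could not be fitted with it, and 2 of 18 libraries correlated best with their own number. Scaling by library size only moved the median of all genes in the interaction to -0.15, and in females called 43 genes higher and 1236 lower over the whole table, against 206 and 807. Adding the counts of Gm29216 to mt-Co1 gave it a female change of 0.44 (adjusted p = 0.155 by edgeR) against 0.41. Depth limits the precision of the isoforms under 5 CPM. The causes of these shifts were not tested.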
